A study of Mus musculus with 3 samples.

Results

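Sertoli cells are the somatic cells that line the seminiferous tubule and carry the germ cells through their development. They take signals from follicle-stimulating hormone and androgen, close the blood-testis barrier with junctions between neighbouring cells, and feed, shape and partly devour the germ cells that they hold. A single Sertoli cell is large, with long processes around many germ cells.

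The Sertoli barcodes described here were chosen by their own UMI counts in 3 single-cell 3′ RNA libraries of adult testis, a UMI being a tag that marks 1 captured RNA molecule. Wildtype replicate 1 and wildtype replicate 2 held 1 mouse each, and the knockout library pooled the cells of 2 mice with a conditional Tex10 knockout; all were adult C57BL/6N mice, and neither the Cre line nor the deleted exons is named in the sources used here. The files held 9967 barcodes with 93418341 UMIs for wildtype replicate 1, 10153 with 96001773 for wildtype replicate 2 and 12918 with 147783171 for the knockout. A barcode entered the work from 1000 UMIs and 500 genes on, if no more than 10% of its UMIs were mitochondrial. A kept barcode was called a Sertoli barcode when Cst9, Cst12, Aard, Defb19, Defb36, Clu, Cldn11 and Rhox5 together reached 5 UMIs and 20 per 10000 UMIs, and exceeded the summed UMIs of Acta2, Myh11, Insl3, Cyp17a1, C1qa and Lyz2, markers of myoid cells, Leydig cells and macrophages. That gave 2617 of 28485 kept barcodes. They were split at 3000 UMIs into 593 deep and 2024 shallow barcodes. Values are given in that order of libraries, and CPM means UMIs per 1000000 UMIs, both summed over the barcodes of a class in a library.

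Several of the rule's markers encode small secreted proteins. Cst9 and Cst12 encode cystatin-family proteins and lie on chromosome 2, as do the beta-defensin genes Defb19 and Defb36. Clu encodes the secreted chaperone clusterin, Cldn11 a claudin of the Sertoli tight junction, and Rhox5 an X-linked homeobox protein under androgen control. The 250 bases before the annotated starts of Cst9 and Cst12 are shown, on the plus strand of GRCm38.p6, from RefSeq, with capitals on every match of 3 motifs on either strand. This pair was picked for its correlation over deep Sertoli barcodes. Those barcodes were chosen by the same markers, and shared control of the 2 genes was not tested. Factors of the family that includes Gata4 are known to bind GATAAG, and nuclear receptors of the NR5A family bind CAAGGTCA. The motif ACAAAG stands for SOX factors. A match on the other strand reads as the reverse complement.
Cst9 (chr2:148834897-148835146): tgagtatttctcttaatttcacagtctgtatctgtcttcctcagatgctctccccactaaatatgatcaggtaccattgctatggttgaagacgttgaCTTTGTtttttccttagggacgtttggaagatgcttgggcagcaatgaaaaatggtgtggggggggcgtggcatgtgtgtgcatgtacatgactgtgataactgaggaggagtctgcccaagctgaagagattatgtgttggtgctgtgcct
Cst12 (chr2:148789115-148789364): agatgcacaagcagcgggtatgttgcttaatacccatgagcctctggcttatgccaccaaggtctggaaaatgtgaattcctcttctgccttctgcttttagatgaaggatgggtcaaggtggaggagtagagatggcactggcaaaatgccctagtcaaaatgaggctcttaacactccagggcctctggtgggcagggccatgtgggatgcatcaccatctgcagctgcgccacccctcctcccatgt
Cst9 held 1 match of the SOX motif, and Cst12 held none of the 3. Of 32851 promoters of this length, 6.55% held the GATA motif, 1.33% the NR5A motif and 16.5% the SOX motif, and a match is a description of letters, not a bound site.

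Sertoli barcodes made up 10.2% (95% Clopper-Pearson interval 9.58 to 10.9; 832 barcodes), 6.88% (6.35 to 7.45; 574) and 10.1% (9.55 to 10.6; 1211) of kept barcodes. The knockout library lay 1.52 percentage points above the mean of the wildtype libraries, inside the range that those libraries spanned, and with 1 knockout library no test was possible. Intervals throughout cover counting error only. Without wildtype replicate 1 the difference was 3.19 points and without wildtype replicate 2 it was -0.149 points, so the choice of wildtype library decided its sign. It was -0.112 points when the marker minimum was 40 per 10000 and -0.577 points at 60 per 10000. Among kept barcodes from 3000 UMIs, deep Sertoli barcodes made up 3.64% (3.08 to 4.28), 1.99% (1.62 to 2.42) and 6.09% (5.48 to 6.73). The knockout library was the highest of the 3 there. It also was with a marker minimum of 40 per 10000 (2.58%, 1.35% and 3.98%) and of 60 per 10000 (2.10%, 1.01% and 3.22%). Deposited barcodes began at lowest totals of 908, 864 and 1381 UMIs, all under the 3000 UMIs of this share. The cause of the difference was not tested.

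Most Sertoli barcodes were shallow. Shallow barcodes made up 82.7%, 83.1% and 70.9% of the Sertoli barcodes, while 51.4%, 41.5% and 51.9% of all kept barcodes were shallow. The Sertoli share was lower in each deeper band in every library, from 20.1%, 19.3% and 21.7% of barcodes with 1000 to 1500 UMIs to 1.33%, 0.922% and 4.07% of those over 20000 UMIs. Somatic barcodes chosen by the same UMI limits on 2 markers each are set beside them. Those 2 markers also had to exceed the sum of all other rule genes, the Sertoli markers included. With 2 markers rather than 8, the minimum of 5 UMIs may exclude more shallow barcodes, and the part of this in the shares was not tested. Of peritubular myoid barcodes (Acta2, Myh11; 103, 107 and 101 in number), 4.85%, 13.1% and 3.96% were shallow. Of Leydig barcodes (Insl3, Cyp17a1; 25, 25 and 54), 4%, 4% and 16.7% were shallow, and of macrophage barcodes (C1qa, Lyz2; 26, 37 and 57), 46.2%, 78.4% and 22.8%. These are descriptions of barcodes within 3 libraries, with no test over them, and fewer cells of a type cannot be told apart from a different loss of that type in dissociation.

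**Figure D1:**
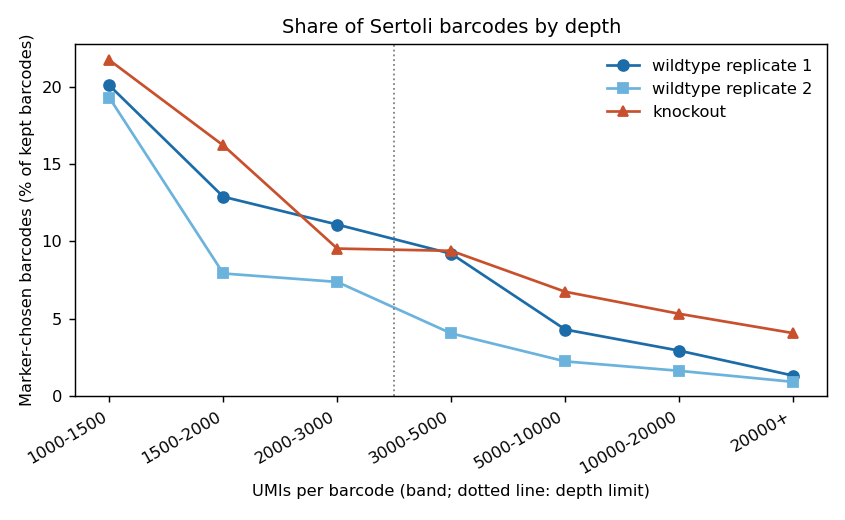
The share of kept barcodes that met the Sertoli marker rule (y axis, percent) is plotted against the UMIs of a barcode in 7 bands (x axis), with 1 line per library and a dotted line at 3000 UMIs. The share is 19.3% to 21.7% in the first band and 0.922% to 4.07% in the last.

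Deep Sertoli barcodes held a median of 6203.5, 6690 and 7867 UMIs and 2413.5, 2711 and 2669 genes, against 1272, 1245 and 1750 UMIs and 881.5, 868 and 1116 genes in shallow ones. After each barcode was thinned to 1000 UMIs, the median number of genes was 690, 724 and 721 in deep and 724, 735 and 723 in shallow barcodes, so at equal depth the median shallow barcode held no fewer genes. The median share of mitochondrial UMIs was 4.55%, 5.26% and 4.57% in deep and 2.76%, 2.92% and 1.86% in shallow Sertoli barcodes, and 0.344% to 0.699% in the other kept barcodes of either depth. The rule sets a floor that moves with depth: under 2500 UMIs, 5 marker UMIs are already more than 20 per 10000. At the edges, 59, 38 and 87 Sertoli barcodes had exactly 5 marker UMIs and 64, 49 and 92 barcodes missed the rule with 4; 28, 18 and 72 lay at 20 to 25 per 10000 and 29, 30 and 83 just outside at 15 to 20. No doublet caller was run, and a barcode that holds a Sertoli cell with attached germ cells or germ-cell RNA meets the rule. Across library pairs, 27 to 30 of the deposited barcode sequences were shared, and none was a Sertoli barcode in both.

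Sertoli genes that the rule did not use went with its markers. The 20 such genes fixed as a list (transcription factors, hormone receptors and inhibins among them) summed to 5760.1, 5684 and 6109.7 CPM in deep Sertoli barcodes against 81.8, 73.8 and 98.9 CPM in the other deep barcodes, and to 4937, 5062 and 3579.7 CPM in shallow ones against 175, 187 and 191 CPM. Most of the sum in deep Sertoli barcodes was 1 gene, the cathepsin Ctsl. After thinning to 1000 UMIs, Ctsl was found in 50.7% of deep Sertoli and 7.20% of other deep barcodes of wildtype replicate 1. Amhr2, the receptor of anti-Müllerian hormone, had at least 1 UMI in 28.5%, 32.0% and 33.5% of deep and 34.6%, 35.2% and 27.0% of shallow Sertoli barcodes after thinning to 1000 UMIs. In the other barcodes, which are mostly germ cells and should lack it, the thinned share was 0.4% to 1.0% (deep) and 1.4% to 1.7% (shallow). Before thinning the Sertoli shares were 64.6%, 68.0% and 73.0% (deep) and 42.6%, 41.9% and 41.3% (shallow). Fshr, the receptor of follicle-stimulating hormone, was sparse, with 10, 6 and 30 UMIs over the deep and 4, 4 and 5 UMIs over the shallow Sertoli barcodes. Amh itself, a hormone of the immature Sertoli cell, had 6, 4 and 15 and 5, 4 and 2 UMIs. By these genes the label Sertoli held in both depth classes, as a description, since they were read in the same cells as the rule's markers.

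The deep class was a mixture. Its density of marker UMIs ran from 20 per 10000 to 456, 433 and 420 per 10000, with medians of 75.2, 60.3 and 68.7. The 29.2%, 32.0% and 34.7% of deep Sertoli barcodes with 20 to 40 per 10000 held a median of 19.0%, 16.7% and 5.65% of their UMIs on 15 genes of elongating spermatids, the protamines Prm1 and Prm2 and the transition proteins Tnp1 and Tnp2 among them. Those from 200 per 10000 held 1.26%, 0.527% and 0.905% on that list, and 8.48%, 8.34% and 7.81% mitochondrial UMIs. The bands between were not in order: in the knockout library the list took 9.35% at 40 to 60 and 9.25% at 60 to 100 per 10000, and in wildtype replicate 1 it took 2.30% and 13.4%. In shallow Sertoli barcodes the same list took 3.45% to 5.95% in every band, close to the 3.85% to 4.69% median of the other shallow barcodes. Shallow density had medians of 111, 106 and 69.9 per 10000, and the knockout library is also the one whose barcodes begin at a higher total.

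**Figure D2:**
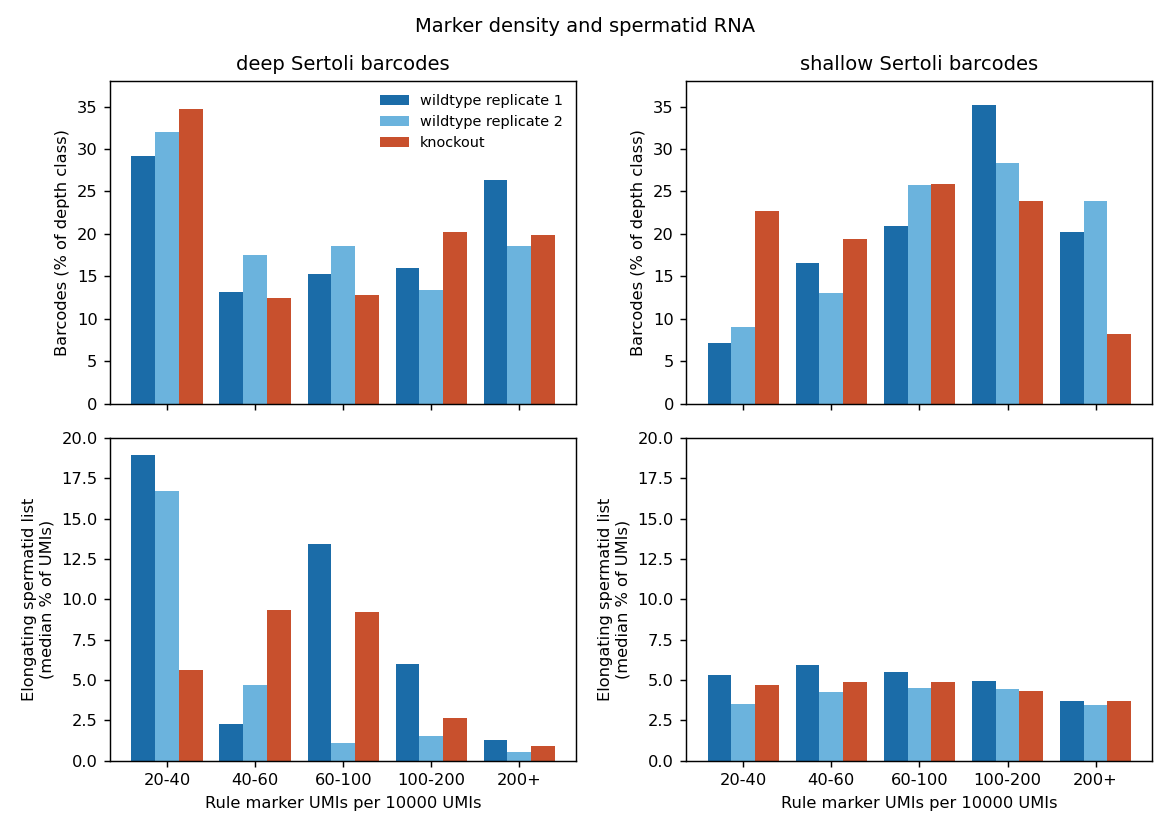
Upper panels give the percent of deep (left) and shallow (right) Sertoli barcodes in 5 bands of marker UMIs per 10000 (x axis), and lower panels the median percent of UMIs on the elongating spermatid list in each band, with 1 bar per library. Among deep barcodes the band from 200 per 10000 has 0.527% to 1.26% on the list, while the lowest band has 5.65% to 19.0%.

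RNA of other somatic cells was described by list sums over each class, not by barcode. The Leydig, myoid and macrophage lists hold the genes that the rule limited, Cyp17a1 and C1qa among them. Their levels were therefore partly set by the choice of barcodes. In deep Sertoli barcodes the 10-gene Leydig list summed to 54.4, 598 and 253 CPM, against 217, 152 and 274 CPM in the other deep barcodes. Of its steroid enzymes, Cyp11a1 had 0, 161 and 103 UMIs and Cyp17a1 3, 101 and 288 UMIs. The myoid list summed to 279, 383 and 337 CPM, the macrophage list to 37.8, 25.1 and 37.5 CPM and the endothelial list to 8.63, 8.36 and 52.7 CPM, with C1qa at 0, 0 and 3 UMIs and Pecam1 at 0, 0 and 11. In shallow Sertoli barcodes the Leydig list held 25.2 to 43.6 CPM, the myoid list 208 to 249 CPM, the macrophage list 31.1 to 111 CPM and the endothelial list 1.48 to 8.72 CPM. Wildtype replicate 2 was thus the library with the highest Leydig sum in deep Sertoli barcodes.

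Within deep barcodes the markers were tied unevenly. After thinning to 3000 UMIs, Spearman's rho over the 144, 97 and 352 deep Sertoli barcodes was 0.79, 0.76 and 0.73 for Cst9 with Cst12 and 0.78, 0.77 and 0.73 for Clu with Ctsl, a cathepsin that mouse Sertoli cells secrete and that the rule did not use. Clu and Defb36, both rule genes, gave 0.12, 0.06 and 0.18. Of the 105 pairs among 15 genes, 38 reached 0.3 in all 3 libraries, 19 of them among the 28 pairs of rule genes. Of the 21 pairs with no rule gene, 2 did: Vim with Ctsl (0.49, 0.37 and 0.45) and Vim with Wt1 (0.35, 0.30 and 0.32), Vim being the vimentin of the Sertoli cytoskeleton. The points share libraries, the marker rule and a varying germ-cell part, so these values describe the barcodes only.

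Deep and shallow Sertoli barcodes differed over much of the transcriptome. The UMIs of each class were summed in each library and compared with edgeR's quasi-likelihood test, paired by library, with the 14 rule genes in the fit but not counted; its p-values measure the spread of that difference over 3 libraries. Of 10579 genes tested, 5843 (55.2%) had a Benjamini-Hochberg adjusted p under 0.05, 2806 (26.5%) higher and 3037 (28.7%) lower in deep barcodes, and 5578 of them changed the same way in all 3 libraries. Scaling by library totals alone moved the median log2 fold change from 0.04 to 0.19 and the split to 3641 higher and 2444 lower. DESeq2's test called 3163. Restricting barcodes to at most 5% mitochondrial UMIs kept 80, 45 and 194 deep Sertoli barcodes, removing most of those with the densest markers, and gave 2221 calls, 1712 of them shared with the 5843, and 488 of the 5843 took the opposite sign.

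Many regulators of the Sertoli cell were higher in deep barcodes. Of 20 transcription factors and receptors in the fixed list, 15 were tested, 12 rose and none fell, beside 26.5% higher and 28.7% lower over all genes; the median log2 fold change was 0.96 (deep minus shallow) beside 0.04 over all genes. With at most 5% mitochondrial UMIs this median was -0.03, and DESeq2 called 5 of the 15. Sox9, the transcription factor that drives Sertoli fate, stood at 119, 126 and 107 CPM in deep and 31.1, 31.2 and 17.4 CPM in shallow barcodes, a log2 fold change of 2.07 ± 0.18 (SE; adjusted p = 3.52e-14). Every deep value lay above every shallow one. Wt1, which maintains the adult Sertoli cell, was at 119, 145 and 111 CPM against 37.1, 40.1 and 33.0 CPM (1.61 ± 0.16; adjusted p = 3.85e-12). The depths did not overlap for Wt1, nor for Nr5a1 (log2 fold change 1.42) or Dmrt1 (1.07). Gata4 did not pass, with 23.9, 23.4 and 28.5 CPM in deep and 22.1, 22.3 and 16.8 CPM in shallow barcodes (0.26 ± 0.24; adjusted p = 0.370). Among the abundant Sertoli transcripts, Amhr2 rose by little (0.34; adjusted p = 0.00578), and it was -0.04 without barcodes over 20000 UMIs and -0.58 with at most 5% mitochondrial UMIs. Inha (379.7, 451 and 406 CPM deep; 369, 424 and 269 CPM shallow), Rhox8 and Etd did not pass.

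Of 27 secreted products in the list, 13 were tested, 8 rose and none fell, beside 26.5% higher and 28.7% lower over all genes, with a median of 0.55, which was -0.28 with at most 5% mitochondrial UMIs. Ptgds, a prostaglandin D synthase that carries retinoids, was at 1096, 1484 and 999.7 CPM in deep and 674, 729.9 and 437 CPM in shallow barcodes (0.83 ± 0.09; adjusted p = 1.26e-10). Serpina5, a serine protease inhibitor, was at 121, 154 and 140.5 CPM against 55.2, 75.7 and 41.7 CPM (1.20 ± 0.15; adjusted p = 3.97e-09). Timp2, an inhibitor of metalloproteinases, differed by 0.60 and the matrix protein Sparc by 0.46. Kitl, the ligand that differentiating spermatogonia need, differed by 0.76, mainly in wildtype replicate 2 (48.5 against 25.2 CPM) and the knockout library (65.2 against 21.2 CPM), and little in wildtype replicate 1 (52.4 against 49.2 CPM). Kitl and Sparc turned negative with at most 5% mitochondrial UMIs, at -0.21 and -0.55. Cst8, a cystatin of the same cluster as Cst9, did not pass (-0.02; adjusted p = 0.877).

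Of 24 junction and cytoskeletal genes, 18 were tested, 8 rose and 1 fell, beside 26.5% and 28.7% over all genes, with a median of 0.39 (-0.16 with at most 5% mitochondrial UMIs). Espn, which bundles the actin of the ectoplasmic specialisation around spermatid heads, was at 388, 374 and 614 CPM in deep and 191, 171 and 130.2 CPM in shallow barcodes (1.37 ± 0.13; adjusted p = 1.79e-12). The knockout library had the widest gap. Ctnnb1, the beta-catenin of adherens junctions, differed by 1.36 (adjusted p = 3.55e-08) and Tjp1, the tight junction scaffold ZO-1, by 0.92 (adjusted p = 1.45e-05), each without overlap between depths. Cldn3, a claudin, fell at the limit of the test (-0.39; adjusted p = 0.0482), and 13 of 16 alternative settings did not keep that call.

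Genes that handle nutrients and retinoids were split. Of 25 in the list, 20 were tested, 8 rose and 5 fell, beside 26.5% higher and 28.7% lower over all genes, with a median of 0.27 that was -0.17 with at most 5% mitochondrial UMIs and -0.01 with a minimum of 10 marker UMIs. Ldha, the lactate dehydrogenase subunit of lactate production, was lower in deep barcodes, at 282, 344 and 336 CPM against 457, 475 and 531 CPM (-0.76 ± 0.10; adjusted p = 1.21e-08), and Pfkp, a phosphofructokinase, was at 19.2, 23.4 and 22.1 CPM against 39.1, 47.5 and 64.2 CPM (-1.43 ± 0.20; adjusted p = 5.23e-08). Slc2a3, a glucose transporter shared with germ cells, differed by -0.54 and was nearly level in wildtype replicate 2 (108 against 105 CPM). Slc7a5, an amino acid transporter, and Aldh1a1, which makes retinoic acid, were higher in deep barcodes by 1.38 and 1.23. For Aldh1a1 wildtype replicate 2 stood highest, at 315 CPM beside 114 and 167, and Leydig cells make it too.

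Phagocytosis and lysosome genes serve to engulf and digest dying germ cells. Of 27 in the list, 24 were tested, 17 rose and 2 fell, beside 26.5% higher and 28.7% lower over all genes, with a median of 0.91 that became -0.09 with at most 5% mitochondrial UMIs; DESeq2 called 9 higher. The receptor kinases Mertk (8.63, 10.0 and 9.49 CPM against 2.01, 2.97 and 3.12 CPM) and Tyro3 (41.8, 55.2 and 54.2 CPM against 28.1, 23.7 and 15.6 CPM) differed by 1.59 and 1.10. The Mertk values of shallow barcodes rest on very few UMIs, so the size of its difference is uncertain. The lysosomal protease Ctsd differed by 0.96 and the saposin precursor Psap by 0.68, and both turned negative with at most 5% mitochondrial UMIs (-0.07 and -0.39). Ctsl, by far the most abundant of the list at 2897, 2846 and 3105 CPM, did not pass (0.17; adjusted p = 0.0967). Laptm4a, a lysosomal membrane protein, fell by 0.28 (adjusted p = 0.0219), and 9 of 16 alternative settings did not keep that call.

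Of 16 further cystatin, defensin and Rhox genes, relatives of the rule's own markers, 6 were tested, 2 rose and 2 fell, near the 26.5% and 28.7% over all genes. Cst3, the general cystatin C, differed by 0.29 (-0.29 with at most 5% mitochondrial UMIs), and Cst13 was at 137, 139 and 118 CPM in deep and 281, 199 and 212 CPM in shallow barcodes (-0.96 ± 0.12; adjusted p = 2.81e-09). Among the rule's markers, given without a test, Cst9 was at 2072, 1841 and 1801 CPM in deep and 2503, 2589 and 1572 CPM in shallow barcodes, higher in shallow ones of the wildtype libraries. Defb19 was at 4018, 3100.1 and 3879 CPM against 3978, 3722 and 2697 CPM, higher in deep ones of the knockout library. Cldn11 stood apart from them at 166, 221 and 192 CPM deep against 92.3, 120.2 and 56.1 CPM shallow.

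**Figure D3:**
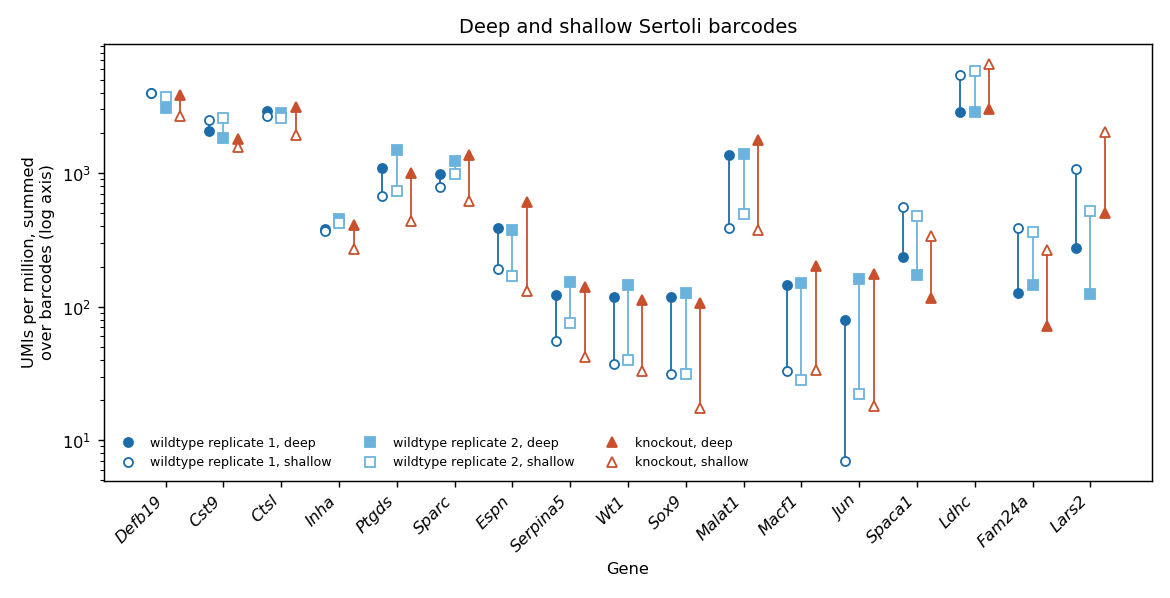
The CPM (y axis, log scale) of 17 genes (x axis) is plotted in deep (filled) and shallow (open) Sertoli barcodes, joined by a line within each library. Defb19, Cst9, Ctsl and Inha lie close together, Sox9, Wt1 and Malat1 are higher in deep barcodes of all 3 libraries, and Spaca1, Ldhc, Fam24a and Lars2 are lower.

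RNAs that stay in the nucleus and RNAs of immediate early genes had some of the widest gaps. Of 5 nuclear long non-coding RNAs, 4 were tested and all 4 rose, beside 26.5% of all genes. Malat1 was at 1361, 1381 and 1757 CPM in deep and 387, 497 and 376 CPM in shallow barcodes (1.71 ± 0.10; adjusted p = 1.06e-19), with Neat1 and Kcnq1ot1 at 1.70 and 1.38. In the other barcodes this list summed to 833, 778 and 993 CPM (deep) and 1784, 1675 and 993 CPM (shallow), so it was not lower in every kind of shallow barcode. Of 17 immediate early and heat shock genes, 14 were tested, 12 rose and 2 fell, beside 26.5% and 28.7% over all genes. Jun was at 79.0, 160.5 and 176 CPM against 7.02, 22.3 and 18.1 CPM (3.03 ± 0.20; adjusted p = 1.58e-18), and Fos, Fosb, Egr1 and Junb rose by 2.93, 3.80, 2.77 and 2.17. Immediate early genes are switched on within a short time of a stimulus. The chaperones Hsp90aa1 and Dnajb1 fell, by 0.34 and 0.73.

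Germ-cell genes were described by stage, beside the 26.5% higher and 28.7% lower over all genes. All 13 round spermatid genes were tested and all 13 were lower in deep barcodes, with a median of -1.20; Spaca1, an acrosome membrane protein, was at 236, 171 and 116 CPM against 563, 481 and 341 CPM (-1.58 ± 0.11; adjusted p = 3.03e-17), and Spam1 and Lyzl1 differed by -1.86 and -1.40. Of 14 spermatocyte genes 5 rose and 7 fell: the synaptonemal complex genes Sycp1 and Sycp3 rose by 1.87 and 1.33, and Ldhc, the lactate dehydrogenase of late spermatocytes and spermatids, fell from 5433, 5817 and 6589 CPM in shallow to 2879, 2868 and 3048 CPM in deep barcodes. Of the elongating spermatid list, 14 were tested, 5 rose and 1 fell. Prm1, Prm2, Tnp1 and Tnp2 rose by 0.53, 0.77, 0.41 and 0.62, and all 4 turned negative when barcodes under 60 marker UMIs per 10000 were left out, at -0.70, -0.35, -0.86 and -0.60, a setting added once the values had been seen. In that setting the regulator, secreted and phagocytosis lists kept medians of 1.13, 0.57 and 0.93. Without barcodes over 20000 UMIs the medians of these 3 lists were smaller, at 0.48, 0.14 and 0.27, beside 0.96, 0.55 and 0.91 with all barcodes. With at most 5% mitochondrial UMIs, 7 of the 13 round spermatid genes were called lower, with a median of -0.58. Of the 14 elongating spermatid genes, 12 were called higher there, with a median of 0.89. Over all 7921 genes tested in that setting, 1067 were higher and 1154 lower.

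The 12 genes with the largest rise among those that reached 100 CPM were Vcam1, Gm2044, Jun, Fos, Agt, Akr1cl, Dazl, Map1b, Fabp3, Macf1, Junb and Tex101. Gm2044, a long intergenic non-coding RNA (chr7:139957005-139958039, GRCm38), was at 277, 164 and 161 CPM in deep and 24.1, 25.2 and 11.8 CPM in shallow Sertoli barcodes, a log2 fold change of 3.26 ± 0.18 (adjusted p = 7.48e-21). In the other deep barcodes it was at 0.306, 0.258 and 0.522 CPM. Map1b and Macf1, large proteins of the microtubule and actin cytoskeleton, showed a like order: 158, 207 and 205 CPM for Map1b in deep against 26.1, 49.0 and 29.9 CPM in shallow Sertoli barcodes and 11.9 to 12.4 CPM in the other deep barcodes. Dazl and Tex101, both germ-cell genes, were also abundant in the other deep barcodes. Dazl was at 166, 159 and 150.3 CPM there and at 155, 211 and 142 CPM in deep Sertoli barcodes, higher in the latter in wildtype replicate 2. Tex101 was at 346, 328 and 292 CPM there and at 209.7, 277 and 266 CPM in deep Sertoli barcodes. In deep Sertoli barcodes Vcam1, an adhesion molecule, Agt (angiotensinogen), Akr1cl and the fatty acid binding protein Fabp3 stood highest in wildtype replicate 2. The Leydig list was at 598 CPM in that library, and Fabp3 is itself a gene of the list. Agt was at 209.8 CPM in wildtype replicate 2, beside 15.3 and 44.3 CPM, and Vcam1 at 106 CPM beside 11.9 and 19.2 CPM. Fabp3 was at 27.2, 176 and 100 CPM, so it was also higher in the knockout library than in wildtype replicate 1. Without wildtype replicate 2 the log2 fold changes of Vcam1, Agt, Akr1cl and Fabp3 went from 4.26, 2.66, 2.64 and 2.36 to 2.89, 1.60, 1.85 and 2.00, and the part of Leydig RNA in them was not tested. In shallow Sertoli barcodes these genes were sparse, with 3, 0 and 2 UMIs for Vcam1 and 6, 5 and 19 for Agt. Akr1cl had 14, 3 and 14 UMIs there and Fabp3 12, 12 and 28, so the sizes of these fold changes are uncertain.

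The 12 genes with the largest fall were 1700041C23Rik, Lars2, A930018P22Rik, AY036118, 4933416O17Rik, 1700010K23Rik, Gm31072, Fam24a, Dydc1, Spata45, Lyzl6 and Slxl1. Lars2, a mitochondrial leucyl-tRNA synthetase, was at 273, 125 and 500.04 CPM in deep and 1083, 519 and 2020.4 CPM in shallow Sertoli barcodes (-2.16 ± 0.10; adjusted p = 1.22e-24), and at 898, 423 and 1553 CPM in the other shallow barcodes. AY036118 (-1.82), which lies over ribosomal RNA repeats and shares its whole 3′ end with another annotated gene, was likewise lowest in wildtype replicate 2, at 561 CPM in shallow barcodes beside 1996 and 1699 CPM. Gm42418, over the same kind of repeat and named after its values were seen, took 5065, 2577 and 11326 CPM in deep and 12001, 5577 and 27254 CPM in shallow Sertoli barcodes. Lars2 and Gm42418 had the same order of libraries in both classes, with the knockout library highest and wildtype replicate 2 lowest. The origin of the Lars2 reads was not tested. The other 10 were at 15.4 to 176 CPM in deep and 70.4 to 519 CPM in shallow Sertoli barcodes. Fam24a, for example, was at 126, 145 and 71.5 CPM against 385, 362 and 265 CPM, and at 838, 647 and 389 CPM in the other shallow barcodes. 1700010K23Rik is annotated as antisense, and related genes hold 93.4% of the 3′ end of Slxl1, so both are uncertain.

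Long transcripts were over-represented among genes higher in deep barcodes. The longest annotated transcript had a median of 3975 bases in genes higher in deep barcodes, 1887 bases in genes lower there and 2554 bases in genes not called; over 10572 genes Spearman's rho between length and log2 fold change was 0.39, and 0.18 with at most 5% mitochondrial UMIs. A similar order was seen within Sertoli genes. A set of 157 genes outside the rule was chosen after its values were seen and gets no test. Each had at least 8 times the level of the other barcodes, with 1 CPM added, in both depth classes of all 3 libraries, and reached 50 CPM in at least 1 of these Sertoli sums. Its log2 ratio of deep to shallow CPM had a median of 0.37, from -0.25 (S100a11) to 2.10 (Gm37350); 98 genes were above 0 in all 3 libraries and none was below 0 in all 3. The 52 shortest, with a median of 1161.5 bases, had a median ratio of 0.28, and the longest 52, with 3525.5 bases, 0.71. Within the libraries Spearman's rho with length was 0.37, 0.38 and 0.48. Exceptions were short non-coding genes: Gm37350 was annotated at 313 bases and stood at 397, 276 and 328 CPM in deep and 58.2, 115.7 and 65.4 CPM in shallow barcodes. Genes are not independent replicates, and length goes with the nuclear and germ-cell differences above, whose shares were not separated.

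**Figure D4:**
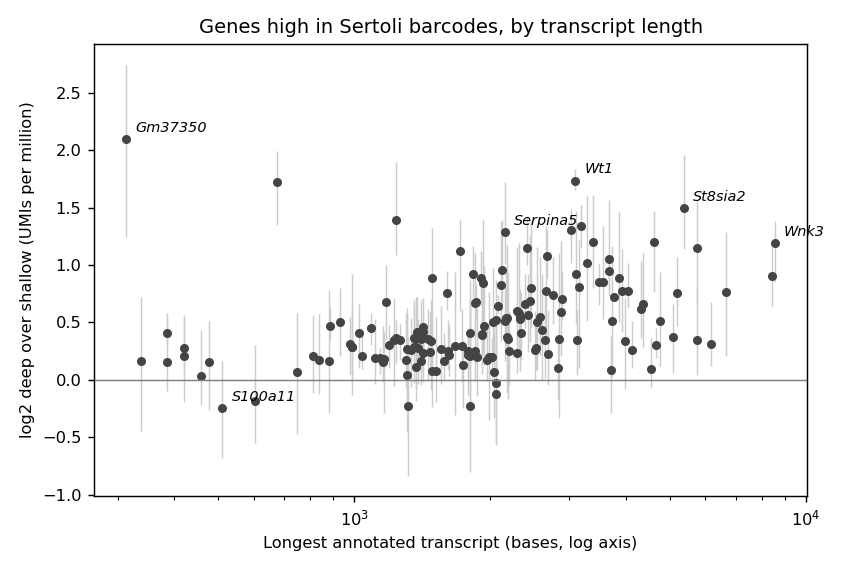
For 157 genes high in Sertoli barcodes, the log2 ratio of deep to shallow CPM (y axis; point, mean of 3 libraries; bar, lowest to highest library) is plotted against the longest annotated transcript (x axis, bases, log scale). Most points lie above 0, with S100a11 lowest at -0.25 and Wt1 at 1.74.

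The knockout library was then set against each wildtype library within each depth class. Tex10, the targeted gene (chr4:48430858-48473459, minus strand), was at 33.2, 45.1 and 39.2 CPM in deep Sertoli barcodes, on 50, 54 and 186 UMIs, with 95% Poisson intervals of 24.6 to 43.8, 33.9 to 58.9 and 33.8 to 45.3. In shallow ones it was at 22.1, 26.7 and 27.4 CPM, on 22, 18 and 44 UMIs. The knockout value lay between the wildtype values in the first and within all intervals in the second, so no loss of Tex10 was detectable in Sertoli barcodes. A 3′ tag may lie outside the deleted exons, and the cells in which Cre was active are not named, so this does not check the labels. Between depths, 3 of the 6 tested genes of the complex that holds Tex10 rose, beside 26.5% of all genes, Mdn1 and Las1l by 1.63 and 1.48, while Tex10 did not pass (0.45 ± 0.21; adjusted p = 0.0685).

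Few genes in the knockout library passed the size rule, which asked for a log2 ratio of at least 1 in size with 10 CPM added against each wildtype library, at least 2 times the ratio between those libraries, and 50 CPM in a library. In deep Sertoli barcodes 9 of 4118 genes passed (0.219%), of which 4 were higher and 5 were lower in it than in wildtype; in shallow ones 16 of 3873 passed (0.413%), with 7 higher and 9 lower. Both classes shared 6: Gm4665 and Prss45 higher, Col16a1, Rpl29, Gm8797 and Gm10076 lower. Col16a1, a collagen gene, was at 209.7, 144 and 7.59 CPM in deep and 168, 147 and 8.72 CPM in shallow Sertoli barcodes. It was at 190.0, 179 and 11.7 CPM in the other deep barcodes, with the gap present outside Sertoli barcodes as well. The same held for the non-coding Gm4665 (40.5, 25.9 and 172 CPM in deep Sertoli barcodes; 33.7, 36.5 and 223 CPM in the others), annotated as antisense, and for Rpl29, a ribosomal protein (629, 675 and 71.7 CPM; 870.2, 869 and 90.7 CPM). The last, with Gm8797 and Gm10076, shares 57.7%, 93.0% and 84.2% of its 3′ end with other genes' transcripts, so their own levels are uncertain. Prss45, a testis serine protease, was at 14.6, 22.6 and 71.5 CPM in deep Sertoli barcodes and at 41.3, 38.8 and 117 CPM in the other deep barcodes.

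Emb, Stmn1 and Gm49048 passed in deep Sertoli barcodes and not in shallow ones, a difference that was not tested. Emb, which encodes embigin, a partner of lactate transporters (chr13:117208536-117274415), was at 31.2, 32.6 and 76.1 CPM in deep Sertoli barcodes, with 95% Poisson intervals of 22.9 to 41.5, 23.2 to 44.6 and 68.5 to 84.4, and at 2.37, 2.88 and 3.03 CPM in the other deep barcodes. Among deep barcodes from 60 marker UMIs per 10000 it was at 44.0, 49.9 and 105 CPM. In that subset it fell short of the size rule's log2 limit against wildtype replicate 2. In shallow Sertoli barcodes it was at 56.2, 40.1 and 56.7 CPM, with the knockout library and wildtype replicate 1 nearly level. Stmn1, the microtubule regulator stathmin, was at 335, 286 and 730.3 CPM in deep and 309, 270.0 and 499 CPM in shallow Sertoli barcodes, and it was also higher in the other deep barcodes (283, 216 and 487 CPM). Other genes hold 26.2% of the words in the Stmn1 3′ end. Gm49048, a long intergenic non-coding RNA, was at 75.004, 80.2 and 32.5 CPM in deep Sertoli barcodes and at 87.5, 118 and 63.8 CPM in the other deep ones. In shallow Sertoli barcodes it was at 131, 117 and 60.4 CPM, lower in the knockout library there too. Among deep barcodes from 60 marker UMIs per 10000, Stmn1 was at 468, 346 and 918 CPM and Gm49048 at 46.2, 64.3 and 21.4 CPM. Neither reached the log2 limit of the size rule against wildtype replicate 1 there.

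In shallow barcodes 5 of the 9 lower genes, Tmed3, Igfbp7, Isoc2b, Nr0b1 and Svs5, stood higher in Sertoli than in other shallow barcodes of the same library. Nr0b1, the nuclear receptor DAX1 on the X chromosome and the only list gene to pass, was at 87.3, 87.5 and 37.4 CPM in shallow Sertoli barcodes, with intervals of 69.9 to 108, 66.6 to 113 and 28.5 to 48.1, and at 2.43 to 4.10 CPM in the other shallow ones. In deep Sertoli barcodes it was at 75.004, 85.3 and 69.2 CPM. Tmed3, a protein of the secretory pathway, was at 209.7, 203 and 75.4 CPM in shallow and 242, 218 and 164 CPM in deep barcodes. The secreted protein Igfbp7 was at 195, 185 and 72.3 CPM in shallow and 173, 157 and 181 CPM in deep barcodes. The marker density of the shallow class was lower in the knockout library too: the 8 rule markers summed to 13898, 14069.8 and 9273 CPM, with a median log2 ratio of -0.61 and -0.63 against the wildtype libraries, and in deep barcodes to 14379.6, 12654 and 13622 CPM, with -0.10 and -0.04. Among shallow barcodes from 60 marker UMIs per 10000, where the markers summed to 17245, 17535 and 13318 CPM, Nr0b1 was at 105, 106 and 47.8 CPM. The part of marker density in these values was not tested. The remaining higher genes in shallow barcodes were Mrto4, 1700034K08Rik, Camk2n1, Gm13166 and Pccb, each also above both wildtype libraries in the other shallow barcodes.

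The genes that passed were counted by chromosome. Chromosome 4, which carries Tex10, held 6.56% and 6.66% of the genes tested in deep and shallow Sertoli barcodes, and 2 of the 9 and 4 of the 16 that passed. Chromosome 9 held 5.56% and 5.16% of the genes tested, and 3 of the 9 and 6 of the 16. No gene of the lists for regulators, secreted products, junctions, nutrients or phagocytosis passed in deep Sertoli barcodes. Over the regulator list the median log2 ratio to the wildtype libraries was -0.09 and -0.22 in deep and -0.47 and -0.50 in shallow barcodes, over the junction list 0.13 and 0.03 in deep and -0.42 and -0.39 in shallow, and over the phagocytosis list 0.15 and 0.12 in deep and -0.26 and -0.42 in shallow. The medians over all genes tested were 0.06 and -0.03 in deep and 0.002 and -0.008 in shallow barcodes. With either wildtype library left out, 28 to 35 genes passed in deep and 37 to 42 in shallow barcodes, and 50 passed in deep barcodes when those over 20000 UMIs were left out.

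**Figure D5:**
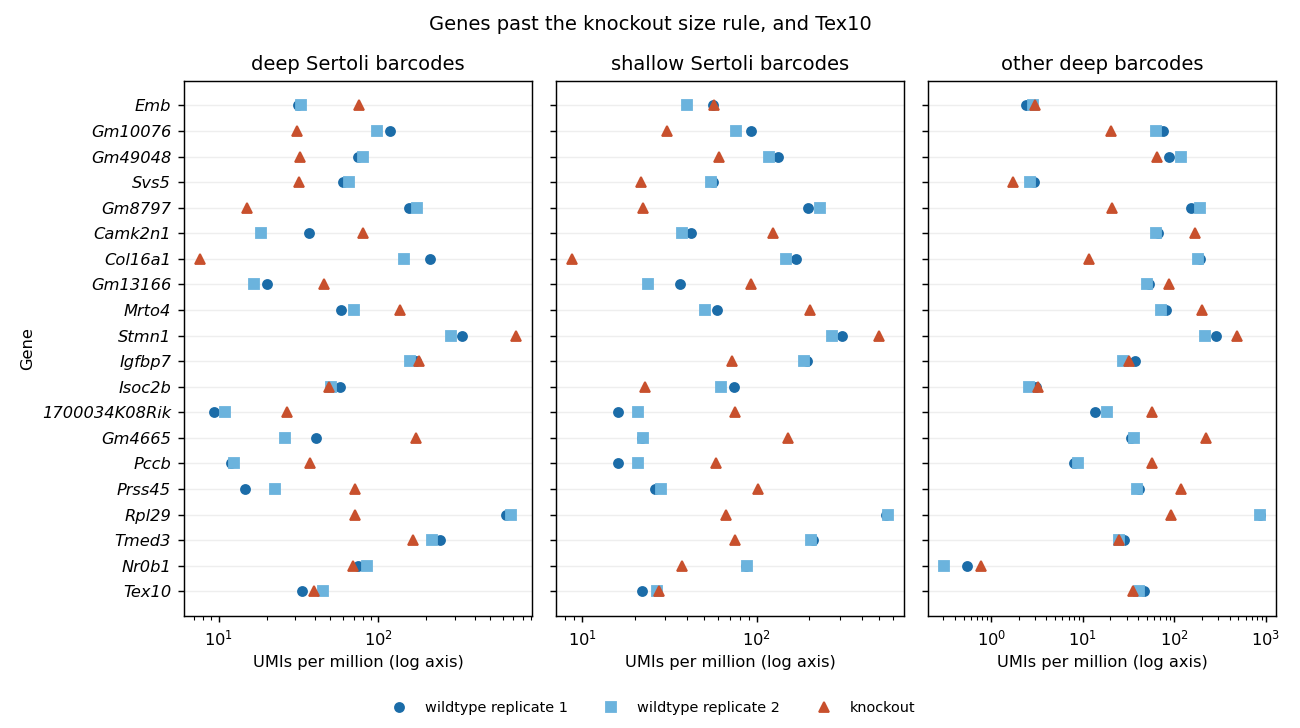
The CPM (x axis, log scale) of the 19 genes that passed the size rule in either depth class, and of Tex10, is plotted per library in deep Sertoli barcodes, shallow Sertoli barcodes and the other deep barcodes. Col16a1, Rpl29 and Gm8797 are far lower in the knockout library in all 3 panels, Emb is higher in deep Sertoli barcodes of the knockout library, and Nr0b1 and Igfbp7 are lower in its shallow ones.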

How the data were processed

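UMI counts per gene and barcode were deposited by the authors for called cells of 3 libraries, raw and not normalized; per the submitters' processing notes Cell Ranger 4.0.0, Seurat 4.0.5 and mm10 were used, and strand use in counting is not given in the sources used here. Called-cell barcodes passed the filters given with the results; no doublet caller was run, and leaving out barcodes over 20000 UMIs was an alternative. The members and gene lists were chosen with earlier results of these data known. Gene positions came from GENCODE annotation of GRCm38, with 32158 of 32285 genes matched by ID, and shared 3′ ends were counted as 31-base words of the last 500 bases of a transcript found in other genes.

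UMIs were summed per library and depth class (deep from 3000 UMIs). Deep and shallow sums were compared with edgeR 4.0.16 (R 4.3.3; TMM, filterByExpr, glmQLFit and glmQLFTest, library as a block) with Benjamini-Hochberg adjustment over all genes tested; DESeq2 1.42.0 was an alternative. A call had an adjusted p under 0.05. The script was tested on simulated data. Knockout against wildtype had 1 knockout library, so a rule of size was used and no test. Genes named were the 12 with the largest change in each direction among called genes that changed alike in all 3 libraries and reached 100 CPM, list genes, Tex10, and genes passing the size rule; for shallow barcodes the genes that passed there but not in deep barcodes were named after their values were seen. Alternatives changed the marker minimum, the mitochondrial and depth limits, the scaling, the filter, the test, the added CPM and the libraries used. Python 3.11.15 with numpy 2.4.6, scipy 1.17.1 and pandas 2.3.3 was used otherwise.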

Additional observations from a re-analysis of the deposited data

Results flagged for a closer look

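Barcodes over 10% mitochondrial UMIs were not used in any comparison, yet many met the Sertoli marker rule: 33.2% (95% Clopper-Pearson interval 30.3 to 36.2), 38.4% (35.3 to 41.6) and 40.0% (36.8 to 43.3) of them (in the library order of the report), against 6.88% to 10.2% of kept barcodes. They numbered 329, 359 and 361, with a median of 2719, 2559 and 4124 UMIs, so the kept Sertoli barcodes are a part of those in the files.

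Only 78 genes named in the text and the 8 rule markers were searched for a sign that differed between genotypes, not all genes tested. The share of all genes with such a split was not counted, so the number found cannot be set against it. After edgeR's TMM scaling, 7 of them were lower in deep than in shallow Sertoli barcodes of both wildtype libraries. In the knockout library these genes were higher in deep barcodes. That difference between genotypes was not tested and rests on 1 knockout library. The wildtype sign rests on that scaling for some: in CPM, Inha was higher in deep barcodes of both wildtype libraries (379.7 against 369 and 451 against 424), and Defb19 and Defb36 in those of wildtype replicate 1 (4018 against 3978, and 725 against 693). The log2 difference, deep minus shallow, was -0.06, -0.07 and 0.42 for Inha, -0.10, -0.22 and 0.40 for Ldhb, and -0.31, -0.19 and 0.70 for Nr0b1. The other 4 are markers that the rule used, and there it was -0.37, -0.65 and 0.0206 for Cst9, -0.11, -0.34 and 0.31 for Cst12, -0.08, -0.42 and 0.35 for Defb19, and -0.03, -0.50 and 0.0725 for Defb36. Over the same libraries the median marker density of shallow Sertoli barcodes was 111, 106 and 69.9 UMIs per 10000.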

How the results depend on the processing

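Of 1233 values of 78 named genes under the alternatives, 1128 kept their direction and side of the threshold, 68 lost the call, 24 gained it and 13 reversed; 151 of 160 list medians kept their sign. With at most 5% mitochondrial UMIs, genes called between depths went from 5843 to 2221, and the medians of the regulator, secreted, junction, nutrient and phagocytosis lists became -0.0254, -0.28, -0.16, -0.17 and -0.0889, with Amhr2 at -0.58, Sparc at -0.55, Kitl at -0.21, Ctsd at -0.0651, Psap at -0.39 and Cst3 at -0.29. DESeq2's test called 3163. With 10 marker UMIs the nutrient median was -0.00743, and without barcodes over 20000 UMIs Amhr2 was at -0.0389. The elongating median was -0.29 at 40 marker UMIs per 10000 (Prm1 -0.0483, Tnp1 -0.0923), -0.13 with a depth limit of 5000 UMIs and -0.73 at 60 per 10000 (Prm1 -0.70, Prm2 -0.35, Tnp1 -0.86, Tnp2 -0.60), the last setting added after seeing the data. Leaving out a library gave 3933 to 5382 calls, and the fit with no replicate block for library 4906. Genes passing the size rule in deep barcodes went from 9 to 18 at 40 per 10000, 15 at 60 per 10000, 50 without barcodes over 20000 UMIs, 5 with 50 CPM added, 31 with no CPM filter and 28 to 35 with 1 wildtype library; in shallow barcodes from 16 to 26 with 1 CPM added, 6 with 50 CPM added, 39 with no filter and 37 to 42 with 1 wildtype library. With 1 wildtype library the limit set by the spread between wildtype libraries drops out; other causes were not tested. The share difference of 1.52 points ranged from -0.577 (60 per 10000) to 3.27 (deep barcodes alone), and was -0.112 at 40 per 10000 and -0.149 to 3.19 with 1 wildtype library. Knockout and wildtype libraries could not be paired, because the knockout group is 1 library, while the comparison of depths was paired by library. Depth limits rare receptors such as Fshr, with 4 to 30 UMIs per class and library.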
